A study of Danio rerio with 18 samples.

Results

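The transcription factors gata5, gata6, sox32, sox17 and mixl1, which act below Nodal signalling to specify endoderm, were followed in RNA from whole zebrafish embryos. They were chosen by name, and all 5 were found among the 32520 genes of the deposited tables with at least some reads. The embryos were 4 h old, counted from fertilisation, and had been given RfxCas13d with 1 of 8 cocktails of 25 guide RNAs (Cocktails 1 to 8) or belonged to the RfxCas13d control. RfxCas13d is a Cas nuclease that cleaves RNA instead of DNA, at sites to which a guide RNA (gRNA) pairs. The series put 200 gRNAs, at a stated 10 pg per embryo, to the question of how far ex vivo models foretell mRNA loss in vivo. Each of the 9 groups had 2 libraries, and the controls carried RfxCas13d as did all cocktail embryos. The sources used here name neither the genes that the gRNAs pair with nor what else control embryos received, so none of the 5 factors is called a target. They give no strain, no number of embryos per library and no word on whether replicates were separate clutches or injections. All p-values therefore measure the spread between these libraries, which may be technical.

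Endoderm in the zebrafish forms at the margin of the blastoderm, next to the yolk, where Nodal ligands signal most strongly. Nodal signalling turns on mixl1, a homeobox factor also known as bonnie and clyde, and gata5, a zinc finger factor also known as faust. These act on sox32, a Sox factor without which no endoderm forms. Sox32 works with the maternal factor Pou5f3 to switch on sox17, a marker of committed endoderm that appears around the onset of gastrulation. The related zinc finger gene gata6 is expressed, as is gata5, in endoderm and in the syncytial layer of nuclei at the surface of the yolk.

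Gene counts per library ran from 2544027 to 4019311 in the cocktails and were 4864939 and 3684672 in the controls. Reads that mapped nowhere made up 21.6% to 47.3% of a cocktail library, against 10.1% and 10.8% of the control libraries, and its part in the results was not tested. Cocktail 1 replicate 1 stood apart. The summed level of the 4 measurable factors in it was 0.462% of the control mean, while the other 15 cocktail libraries lay between 9.73% and 49.7%. Marker lists of the enveloping layer and the mesoderm were likewise at 0.428% and 0.209% of the control mean in that library, and oocyte and germ plasm markers at 328%. The tests below are therefore also given without it, which leaves Cocktail 1 with 1 library, assumed to vary like the other groups.

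Levels are given in CPM, read counts scaled to an equal library size after TMM normalisation. The homeobox gene mixl1 (ENSDARG00000069252) was the factor nearest to its control level. It was at 0.540 and 32.9 CPM in Cocktail 1, 53.5 and 113 CPM in Cocktail 2, 46.9 and 61.4 CPM in Cocktail 3, and 33.1 and 35.6 CPM in Cocktail 4. It was at 63.6 and 82.7 CPM in Cocktail 5, 62.5 and 73.6 CPM in Cocktail 6, 145 and 132 CPM in Cocktail 7, and 97.3 and 67.7 CPM in Cocktail 8, against 172 and 151 CPM in the control. Every cocktail library lay below both controls, with Cocktail 7 the closest and the first library of Cocktail 1 far below the rest. Over the 16 cocktail libraries mixl1 averaged 68.9 ± 38.3 CPM (SD, n = 16), against 161 ± 15.2 CPM in the control (SD, n = 2). The mean of the 8 cocktails had a log2 fold change of -1.46 ± 0.55 (SE) against the control, which did not pass (adjusted p = 0.0777). Without Cocktail 1 replicate 1 the change was -1.34 ± 0.19 and passed (adjusted p = 5.58e-06). It also passed without Cocktail 1 replicate 2, at -2.06, and with all libraries when low counts were not filtered. In the other 16 of the 18 fits with 1 library left out, mixl1 did not pass.

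The zinc finger gene gata5 (ENSDARG00000017821) fell in the cocktails. It was at 0.811 and 9.91 CPM in Cocktail 1, 26.0 and 39.8 CPM in Cocktail 2, 12.5 and 12.8 CPM in Cocktail 3, and 10.3 and 6.19 CPM in Cocktail 4. It was at 25.8 and 13.9 CPM in Cocktail 5, 58.6 and 52.6 CPM in Cocktail 6, 37.3 and 38.8 CPM in Cocktail 7, and 34.8 and 26.5 CPM in Cocktail 8, against 114 and 101 CPM in the control. No cocktail library reached either control, and those of Cocktail 6 came nearest. The mean was 25.4 ± 17.1 CPM in the cocktails (SD, n = 16) and 107 ± 9.49 CPM in the control (SD, n = 2), with a log2 fold change of -2.44 ± 0.29 (adjusted p = 3.77e-06). Without Cocktail 1 replicate 1 it was -2.34 ± 0.20 (adjusted p = 3.43e-09).

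Its relative gata6 (ENSDARG00000103589) had the largest decrease of the 4 factors. Its levels were 1.08 and 8.95 CPM in Cocktail 1, 27.2 and 43.1 CPM in Cocktail 2, 5.59 and 9.19 CPM in Cocktail 3, and 10.9 and 8.36 CPM in Cocktail 4. They were 17.9 and 26.3 CPM in Cocktail 5, 45.5 and 50.4 CPM in Cocktail 6, 55.1 and 53.7 CPM in Cocktail 7, and 36.4 and 35.6 CPM in Cocktail 8, against 237 and 203 CPM in the control. The highest cocktail library, in Cocktail 7, was at 25.1% of the control mean, so the groups lay far apart. The mean was 27.2 ± 18.8 CPM in the cocktails (SD, n = 16) and 219.8 ± 23.7 CPM in the control (SD, n = 2). On these means the cocktails were at 12.4% of the control. The fold change averages the cocktails on the log scale, so the percentage that goes with it is lower. The log2 fold change was -3.46 ± 0.24, or 9.09% of the control level (adjusted p = 2.37e-09), and -3.36 ± 0.17 without Cocktail 1 replicate 1 (adjusted p = 4.26e-13).

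The Sox factor sox32 (ENSDARG00000100591), which stands below mixl1 and gata5 in the pathway, fell by about as much as gata5. It was at 0.270 and 10.9 CPM in Cocktail 1, 14.1 and 19.9 CPM in Cocktail 2, 15.4 and 22.6 CPM in Cocktail 3, and 12.2 and 6.81 CPM in Cocktail 4. It was at 16.4 and 20.2 CPM in Cocktail 5, 38.0 and 32.9 CPM in Cocktail 6, 53.3 and 43.8 CPM in Cocktail 7, and 16.2 and 22.6 CPM in Cocktail 8, against 110 and 83.4 CPM in the control. Here too all cocktail libraries lay below both controls, with Cocktails 6 and 7 above the other 6 cocktails. The mean was 21.6 ± 14.0 CPM in the cocktails (SD, n = 16) and 96.8 ± 18.9 CPM in the control (SD, n = 2). The log2 fold change was -2.44 ± 0.35 (adjusted p = 8.39e-05), and -2.33 ± 0.20 without Cocktail 1 replicate 1 (adjusted p = 4.89e-09).

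The fifth factor, sox17 (ENSDARG00000101717), was barely detected at this stage, with 10 reads in all. It had 4 reads over 3 of the 16 cocktail libraries and 6 reads in control replicate 2, with 0 reads in control replicate 1. A count of 0 allows a level of up to 1.18 CPM in the shallowest cocktail library and up to 0.689 CPM in control replicate 1, limits that cover counting error only. It was left out of the tests for its low counts, and at this depth a difference is neither claimed nor excluded. In the RefSeq table of another assembly sox17 and sox32 lie next to each other with 1 uncharacterised gene between them. How reads shared between related genes were counted is not stated in the sources used here.

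Of the 4 factors tested, 3 fell in the mean of the 8 cocktails, where 13.6% of all 14514 genes tested were called lower and 15.1% higher. Without Cocktail 1 replicate 1 all 4 fell, where 15.8% of 15525 genes were called lower and 14.6% higher. With all 16 cocktail libraries below both controls, the 4 factors belonged to the 12.3% of genes for which this held. The median gene had a log2 fold change of 0.03. In the order of all log2 fold changes from the lowest, gata6 lay within the first 0.841% of genes, gata5 and sox32 within the first 2.25% and 2.28%, and mixl1 within the first 6.35%. In RNA from whole embryos, fewer cells that express a factor and less of its RNA per cell cannot be told apart. Nor can gata5 and gata6 RNA of the endoderm be separated from that of the yolk syncytial layer.

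**Figure D1:**
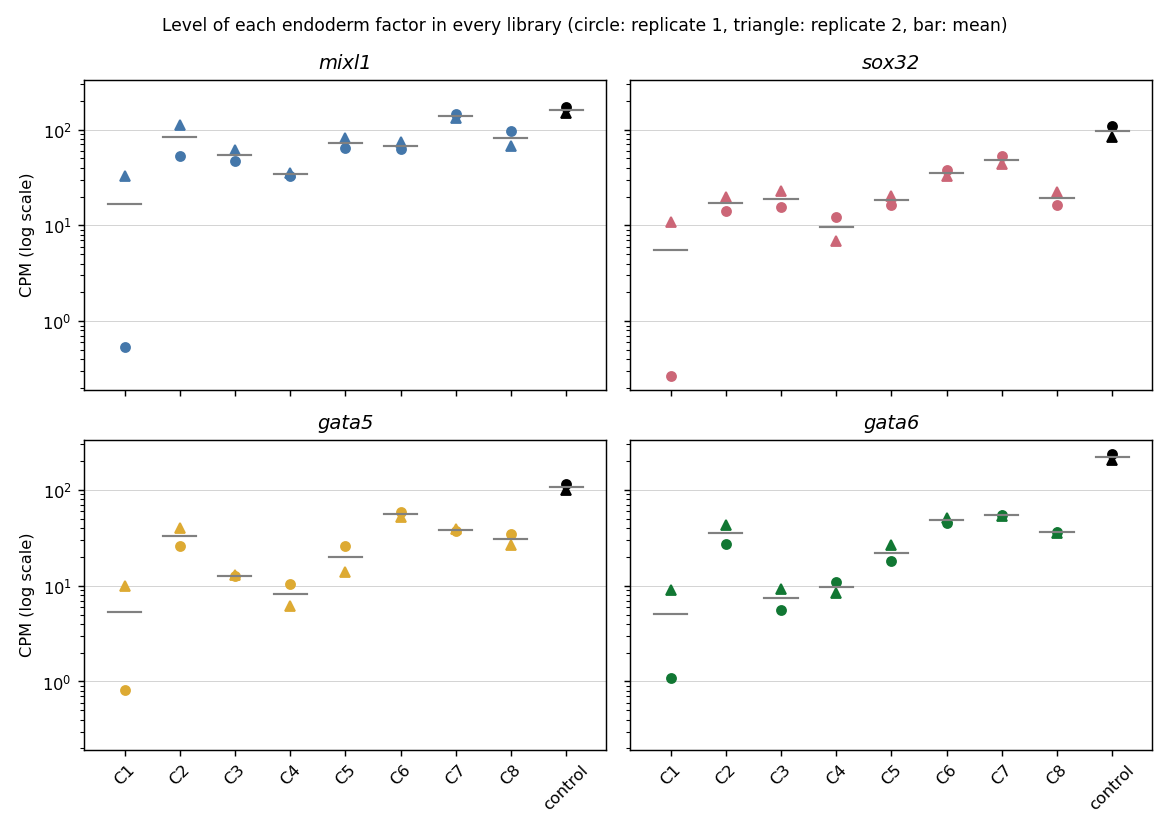
Level of mixl1, sox32, gata5 and gata6 in CPM on a log scale in each of the 18 libraries, by cocktail (C1 to C8) and control. Points are libraries and grey bars are means of 2 libraries. All cocktail points lie below both control points, and the circle of C1, at 0.270 to 1.08 CPM, lies far below all others.

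Levels can be compared between genes only per length, as in the deposited TPM values. On that scale gata6 was the most abundant factor in both controls, at 175 and 154 TPM, followed by mixl1 at 92.9 and 83.6 TPM, gata5 at 77.9 and 68.7 TPM, and sox32 at 72.9 and 55.4 TPM. In the cocktails the order was another one. The highest TPM belonged to mixl1 in 14 of the 16 cocktail libraries, to gata5 in the first library of Cocktail 6 and to gata6 in the first library of Cocktail 1. In Cocktail 7 mixl1 was at 80.7 and 80.6 TPM and gata6 at 43.3 and 46.2 TPM. The ratio of mixl1 to gata6 was highest in Cocktail 3, with mixl1 at 29.9 and 28.9 TPM and gata6 at 4.49 and 6.79 TPM.

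To see whether the factors fell by unequal amounts, the ratio of their counts was taken within each library, where library scaling has no part. The log2 ratio of gata5 to gata6 averaged -0.05 ± 0.50 in the cocktails (SD, n = 16) and -1.03 ± 0.03 in the control (SD, n = 2), and all 16 cocktail libraries lay above both controls. The difference of 0.98 had p = 0.0131 in a two-sided exact permutation test, the smallest that the 153 splits allow, and an adjusted p = 0.0784 over the 6 pairs in this exact test. For mixl1 to gata6 the mean was 1.39 ± 0.91 in the cocktails and -0.44 ± 0.02 in the control, with 15 of 16 cocktail libraries above both controls (difference 1.84, exact permutation p = 0.0392, adjusted p = 0.105). The exception was Cocktail 1 replicate 1, in which mixl1 had 2 reads and gata6 had 4.

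With that library left out, both ratios passed over the 6 pairs (differences 1.00 and 1.99, exact permutation p = 0.0147, adjusted p = 0.0441 for each), with all 15 cocktail libraries above both controls. That p is the smallest that 15 against 2 libraries allow. For mixl1 to gata6 the library left out was the exception itself, so its pass is no separate support. Nor is that of gata5 to gata6, whose exact permutation p was no smaller than with all libraries (0.0131). Its adjusted p fell only because mixl1 to gata6 now had the same p. The ratio of sox32 to gata6 differed by 0.92 (exact permutation p = 0.105, adjusted p = 0.157), mixl1 to sox32 by 0.91 (adjusted p = 0.105 in the same exact test) and mixl1 to gata5 by 0.85 (adjusted p = 0.251 in the same exact test). The ratio of sox32 to gata5 averaged -0.22 ± 0.65 in the cocktails and -0.16 ± 0.15 in the control, with cocktail libraries on either side of the controls (difference -0.06, exact permutation p = 0.863). Both thus had nearly the same mean change, though their ratio varied between libraries. It ran from -1.22 in Cocktail 1 replicate 1, with 1 read of sox32 and 3 of gata5, to 0.82 in the second library of Cocktail 3. The 2 libraries of Cocktail 5 were at -0.65 and 0.54, and a difference between cocktails was not tested. These tests treat the 18 libraries as independent, although each cocktail gave a pair of them and a single group served as control.

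**Figure D2:**
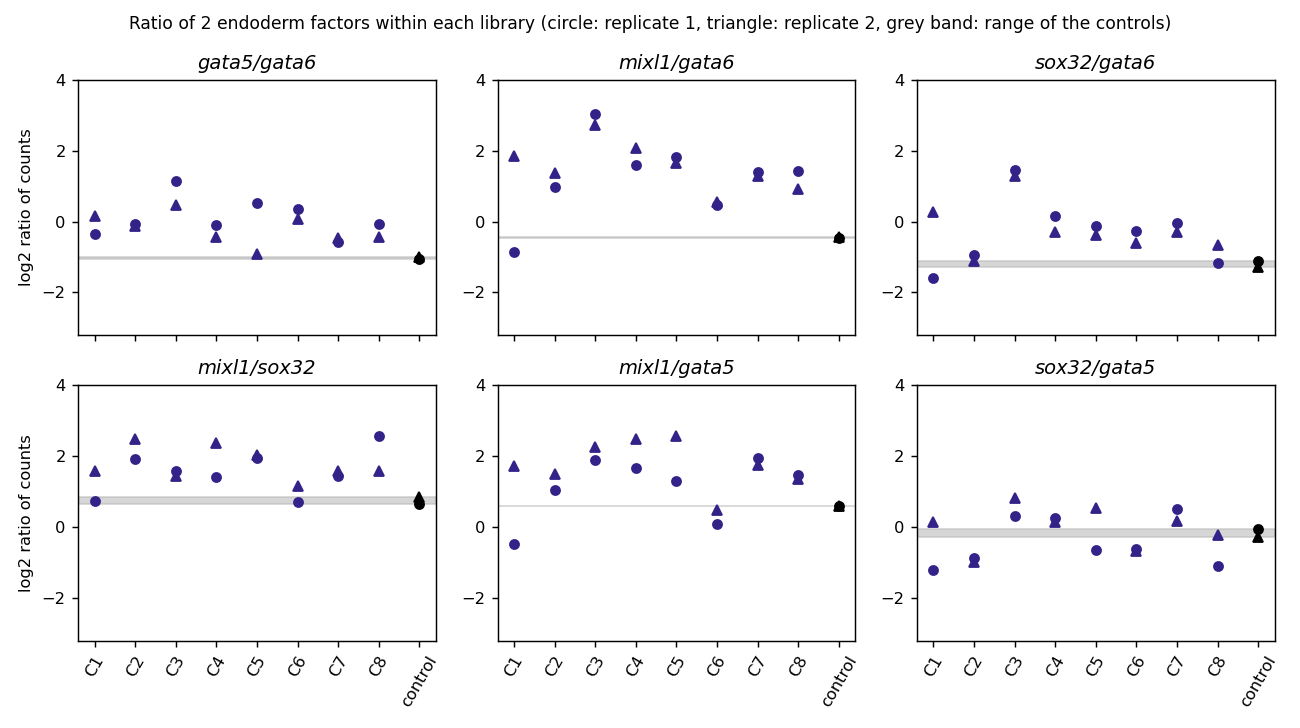
Log2 ratio of the counts of 2 factors within each of the 18 libraries, by cocktail (C1 to C8) and control, with the range of the controls as a grey band. All 16 cocktail points lie above the band for gata5 to gata6 and 15 of 16 for mixl1 to gata6, while those of sox32 to gata5 lie on either side.

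Each cocktail was next set against the control, a gene being called at an adjusted p below 0.05 if it also changed by 2-fold or more. The cocktails share the same 2 controls, so their calls are not independent. The factor gata6 fell in all 8 cocktails, which held for 0.407% of the genes tested. Its log2 fold changes ran from -5.49 ± 0.51 in Cocktail 1 to -2.01 ± 0.41 in Cocktail 7. The genes gata5 and sox32 each fell in 6 cocktails, as did 1.44% of genes in at least 6, and neither passed in Cocktails 6 and 7. In Cocktail 6 gata5 was at -0.95 ± 0.46 (adjusted p = 0.249) and sox32 at -1.45 ± 0.57 (adjusted p = 0.150), and in Cocktail 7 gata5 was at -1.50 ± 0.48 (adjusted p = 0.0560) while sox32 stood at 50.1% ± 6.93 (SD, n = 2) of the control mean and did not pass (edgeR adjusted p = 0.310).

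For mixl1 only Cocktail 1 passed (-3.30 ± 0.94, adjusted p = 0.0281), and it no longer did with control replicate 1 or control replicate 2 removed (adjusted p of up to 0.0960). Its changes in the others ran from -2.23 ± 0.88 in Cocktail 4 (adjusted p = 0.0975) to -0.22 ± 0.82 in Cocktail 7 (adjusted p = 0.916). Counted together, 21 of the 32 comparisons of a factor in a cocktail were called lower, where 4.22% of all gene by cocktail comparisons were. All 32 fold changes were negative. The share of all genes with negative changes in all 8 cocktails was not counted, while 12.3% had all 16 cocktail libraries below both controls. All 4 factors fell in Cocktail 1, where 7.86% of all genes were called lower. In Cocktails 2, 3, 4, 5 and 8 the same 3 factors fell, where 3%, 7.7%, 6.69%, 3.47% and 2.25% of genes were called lower, in that order. In Cocktails 6 and 7 gata6 alone passed, where 1.14% and 1.67% did.

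In the fit without Cocktail 1 replicate 1 the count was 28 of 32, while 5.03%, 4.68%, 8.82%, 7.83%, 5%, 2.43%, 3.1% and 3.6% of all genes were called lower in Cocktails 1 to 8, in that order. There sox32 fell in all 8 cocktails, gata5 in all but Cocktail 6 and mixl1 in Cocktails 1, 3, 4, 5 and 6. In Cocktails 2 and 8 mixl1 was at -0.98 ± 0.28 and -0.99 ± 0.28, just short of the 2-fold minimum, and in Cocktail 7 it was at -0.24 ± 0.27 (adjusted p = 0.637). The size of each change in the other 7 cocktails was nearly the same in either fit, while the standard errors were smaller. Without control replicate 1 the count was 14 of 32, while 0.271% to 4.89% of all genes were called lower in a cocktail. Without control replicate 2 it was 17, while 0.354% to 4.77% were.

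**Figure D3:**
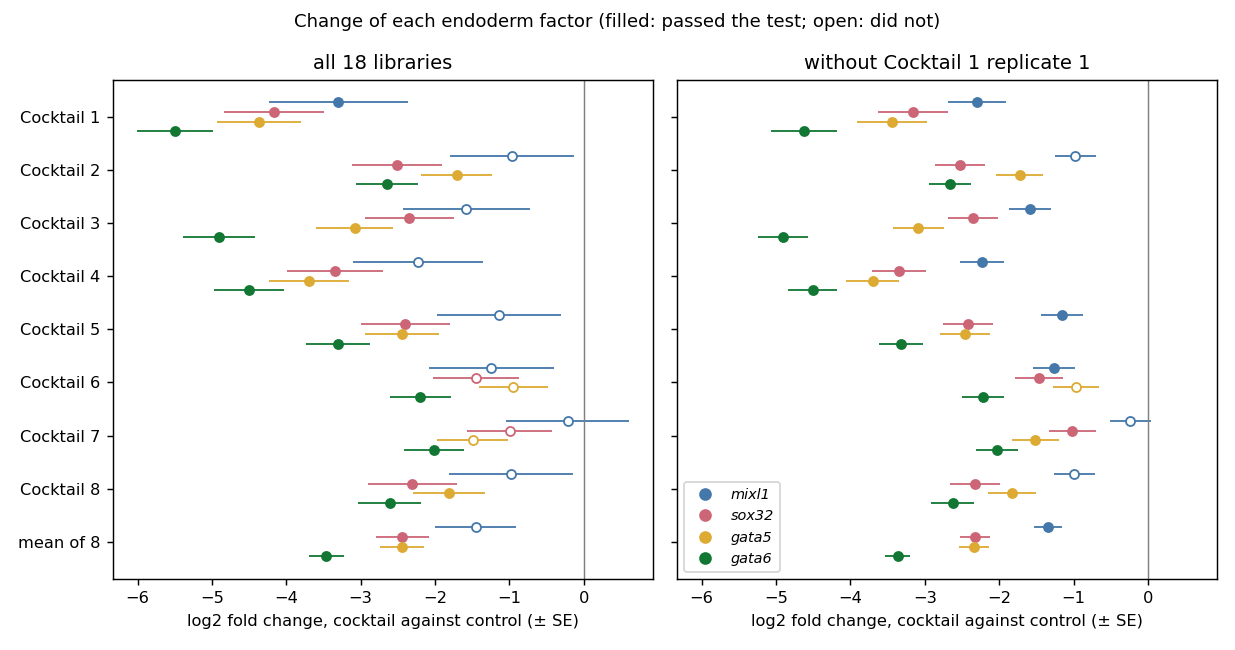
Log2 fold change (± SE) of mixl1, sox32, gata5 and gata6 in each cocktail and in the mean of the 8 cocktails against the control, with all 18 libraries (left) and without Cocktail 1 replicate 1 (right). Filled points passed the test and open points did not. The gata6 point is the leftmost in every row, and 21 points of single cocktails are filled on the left, against 28 on the right.

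Whether a factor differed between cocktails was tested against the mean of the other 7 cocktails. The controls had no weight in this contrast, though they took part in the filter, the scaling and the estimate of the spread. Cocktail 6 had more gata5 (log2 fold change 1.71 ± 0.32, adjusted p = 0.0166) and more gata6 (1.44 ± 0.29, adjusted p = 0.0226) than the mean of the other 7, where 0.241% of all genes were called higher. Cocktail 7 had more gata6 (1.65 ± 0.28, adjusted p = 0.00376), where 0.358% were. Its sox32, at 1.65 ± 0.40 (adjusted p = 0.0690), and its mixl1, at 1.41 ± 0.57 (adjusted p = 0.355), did not pass. Cocktail 1 had less gata5 (-2.20 ± 0.48, adjusted p = 0.0387) and less gata6 (-2.33 ± 0.42, adjusted p = 0.0102), where 0.241% of genes were called lower. Neither call of Cocktail 1 held without its replicate 1 (adjusted p = 0.367 and 0.193).

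Leaving that library out altered what passed in the other cocktails. Cocktail 4 then had less of all 4 factors, with gata5 at -1.56 ± 0.31, gata6 at -1.31 ± 0.27, sox32 at -1.17 ± 0.30 and mixl1 at -1.02 ± 0.24 (adjusted p = 0.00487, 0.00735, 0.0390 and 0.0216), where 0.908% of all genes were called lower. Cocktail 3 had less gata6 (-1.77 ± 0.28, adjusted p = 0.000661), where 0.696% were. Cocktail 7 had more gata6 (1.52 ± 0.20), sox32 (1.50 ± 0.23) and mixl1 (1.26 ± 0.19) (adjusted p = 8.21e-05, 0.000413 and 0.000413), where 0.844% of genes were called higher. Cocktail 6 had more gata5 (1.57 ± 0.22) and gata6 (1.31 ± 0.20) (adjusted p = 0.000235 and 0.000767), where 0.509% were. Its mixl1 was at 0.09 ± 0.21.

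In the order of group means the control came first for each factor, with no overlap with the next group. Cocktail 7 followed for mixl1, sox32 and gata6, and Cocktail 6 for gata5. Cocktail 1 had the lowest mean of each factor. For gata5 and sox32 its 2 libraries overlapped those of Cocktail 4, the next lowest, and for gata6 those of Cocktail 3. Its replicate 2 alone, at 9.91 CPM of gata5 and 10.9 CPM of sox32, lay above the Cocktail 4 means (8.24 and 9.52 CPM). For gata6 that library was at 8.95 CPM, above the Cocktail 3 mean (7.39 CPM). The lowest rank of Cocktail 1 in gata5, sox32 and gata6 thus rested on its replicate 1. For mixl1 the middle of the order, Cocktails 2, 8, 5 and 6, consisted of neighbours whose libraries overlapped. In sox32 the same was true of Cocktails 8, 3, 5 and 2, in gata5 of Cocktails 7, 2 and 8, and in gata6 of Cocktails 8 and 2.

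The genes whose pattern over the 9 groups was most like that of a factor were found by the root mean square (RMS) difference of log2 CPM, each gene centred on its mean, among 12903 genes. The groups share their library scaling, and Cocktail 1 replicate 1 is part of the means. For gata6 the closest were a gene given here by its identifier, ENSDARG00000039070 (0.23 log2 units), esrp1, a splicing regulator of epithelia (0.27), and afp4 (0.29), where the median gene lay 1.68 away. For gata5 they were slc3a2b, the heavy chain of amino acid transporters (0.25), cyp27c1, a cytochrome P450 (0.25), and the keratin krt8 (0.27), with the median gene at 1.42. Next to sox32 stood fgf8a, an FGF ligand (0.31), fam13a (0.31) and bmp7a, a BMP ligand (0.31), with the median gene at 1.37. The closest to mixl1 were a gene without a name in the tables, ENSDARG00000104576 (0.25), the FGF ligand fgf17 (0.26) and nnr (0.28), with the median gene at 1.35. None of the factors was among the 3 closest genes of another. They lay 0.46 apart for gata5 and gata6 and for gata5 and sox32, and 0.50 for sox32 and mixl1. The distance was 0.64 for gata5 and mixl1, 0.69 for gata6 and sox32, and 0.86 for gata6 and mixl1. As neighbours of each other among the 12903 genes, they ranked from 21 (gata5 for gata6) to 471 (gata6 for mixl1).

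Of a wider list of 30 genes of the Nodal and endoderm pathway, 29 were matched and 26 could be tested. In the mean of the 8 cocktails 6 were lower and 3 higher, where 13.6% of all genes were called lower and 15.1% higher, and the median log2 fold change was -0.40 against 0.03 over all genes. Among the ligands, gdf3 rose (0.51 ± 0.18, adjusted p = 0.0349), while ndr1 was at 0.62 ± 0.48 and ndr2 at -0.93 ± 0.35 (adjusted p = 0.375 and 0.0515). The coreceptor gene tdgf1 fell (-0.55 ± 0.15), as did the receptor genes acvr1ba (-0.70 ± 0.15) and acvr2bb (-0.63 ± 0.23), and the transducer foxh1 (-0.68 ± 0.13) (adjusted p = 0.00873, 0.00142, 0.0398 and 0.000637). The transducer smad2 rose (0.93 ± 0.17, adjusted p = 0.000283).

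Of the maternal partners, pou5f3, with which Sox32 acts on sox17, fell, with means of 1103 CPM in the cocktails and 2504 CPM in the control (-1.21 ± 0.14, adjusted p = 1.29e-06). The T-box factor eomesa, which acts with mixl1 and gata5 on sox32, rose (1.53 ± 0.19, adjusted p = 4.28e-06), with means of 331 CPM in the cocktails and 113 CPM in the control. The homeobox gene nanog was at 0.25 ± 0.15 (adjusted p = 0.226). The Nodal antagonists lft1 and lft2, themselves targets of the pathway, were at -0.27 ± 0.48 and 0.06 ± 0.53 (adjusted p = 0.720 and 0.957). Among genes listed as downstream of the factors, a place not tested here, foxa2 fell (-1.69 ± 0.38, adjusted p = 0.00208). The related foxa3 had means of 134 CPM in the cocktails and 380 CPM in the control and did not pass (-1.71 ± 0.68, adjusted p = 0.0918). Other downstream genes tested did not pass either, with her5 at 1.05 ± 0.92, cxcr4a at -0.68 ± 0.38 and dusp4 at -0.31 ± 0.18 (adjusted p = 0.443, 0.190 and 0.219). The means of her5 were 129 CPM in the cocktails and 61.1 CPM in the control. Without Cocktail 1 replicate 1 foxa3 was at -1.60 ± 0.15 and her5 at 1.16 ± 0.19, and the list median was -0.42. In that fit the ligands ndr1 and ndr2 went opposite ways, at 0.71 ± 0.26 and -0.86 ± 0.31. Of the partners, nanog was at 0.28 ± 0.09 and mxtx1 at -0.92 ± 0.22. The later endoderm genes foxa1, gata4 and hhex had 30, 4 and 21 reads over all libraries and were not tested.

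Markers of other cell types moved in the same libraries and in the same contrast, with its 13.6% of all genes lower and 15.1% higher, and their part in the changes of the endoderm factors was not tested. Of the yolk syncytial layer list, 4 of the 6 genes tested fell and none rose: mttp, a lipid transfer protein (-4.39 ± 0.31), the transporter slc26a1 (-2.48 ± 0.46), the nuclear receptor hnf4a (-2.41 ± 0.48) and hnf1ba (-2.09 ± 0.41). The regulator mxtx2 was at 0.50 ± 1.00 (adjusted p = 0.754) and gata3 at -1.01 ± 0.76 (adjusted p = 0.372). The median log2 fold change of the list was -2.25. In its summed level mxtx2 made up 350 CPM in the cocktails and 237 CPM in the controls. That sum was at 0.305% of the control mean in Cocktail 1 replicate 1 and between 44.3% and 93.1% in the other 15 cocktail libraries. The median over all 16 cocktail libraries was 54.8%. Of defining markers of these lists, apoa1b (yolk syncytial layer), tbx6 (mesoderm) and sox2 (ectoderm) had 0 reads in both controls. In the mesoderm list 3 of 5 fell, the T-box gene tbxta (-2.89 ± 0.48), fgf8a (-2.04 ± 0.38) and gsc (-1.41 ± 0.43). The most abundant of them, tbx16, was at -2.15 ± 0.78 (adjusted p = 0.0668), and the summed level had a median of 27.1%. Of the 13 enveloping layer genes 10 fell, among them anxa1c (-6.48 ± 0.96), evpla (-5.09 ± 0.29) and the keratin krt5 (-4.92 ± 0.29), and none rose (median of the summed level 29.0%). The change of anxa1c rests on 59 reads over all libraries, with means of 0.191 CPM in the cocktails and 6.35 CPM in the controls. The keratin krt18a.1 was at -1.62 ± 0.94 (adjusted p = 0.241).

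Of the 4 ectoderm and neural genes tested, 1 fell, zic2b (-2.12 ± 0.52), while sox3 was at -1.69 ± 0.61 (adjusted p = 0.0674) and foxi1 at 0.27 ± 0.80 (median of the summed level 43.4%). Oocyte and germ plasm genes went the other way, with 8 of 11 higher, buc (2.42 ± 0.21) and tdrd6 (2.37 ± 0.38) the most, and none lower, and with sums between 144% and 328% of the control mean in the cocktail libraries. The linker histone gene h1m, the most abundant of those not called, was at 0.21 ± 0.17 (adjusted p = 0.361). Without Cocktail 1 replicate 1, where 15.8% of all genes were lower and 14.6% higher, the lower and higher counts were 6 and 1 of 7 yolk syncytial genes, 4 and 0 of 6 mesoderm genes, 13 and 0 of 13 enveloping layer genes, 3 and 0 of 4 ectoderm genes, and 0 and 8 of 11 oocyte genes. The libraries of Cocktail 4, with 11.4% and 9.73% of the summed control level of the endoderm factors, also had the lowest enveloping layer sums outside Cocktail 1 replicate 1 (17.6% and 15.6%). Those of Cocktail 7, with 49.7% and 45.9%, had the lowest oocyte sums (154% and 144%). Both were picked after the values were seen, with no test, and the orders differed elsewhere. The highest enveloping layer sum of a cocktail library (46.4%) was in Cocktail 2 replicate 2, with the factors at 36.8%. Outside Cocktail 1 replicate 1 the highest oocyte sum (278%) was in Cocktail 3 replicate 2, with the factors at 18.1%.

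**Figure D4:**
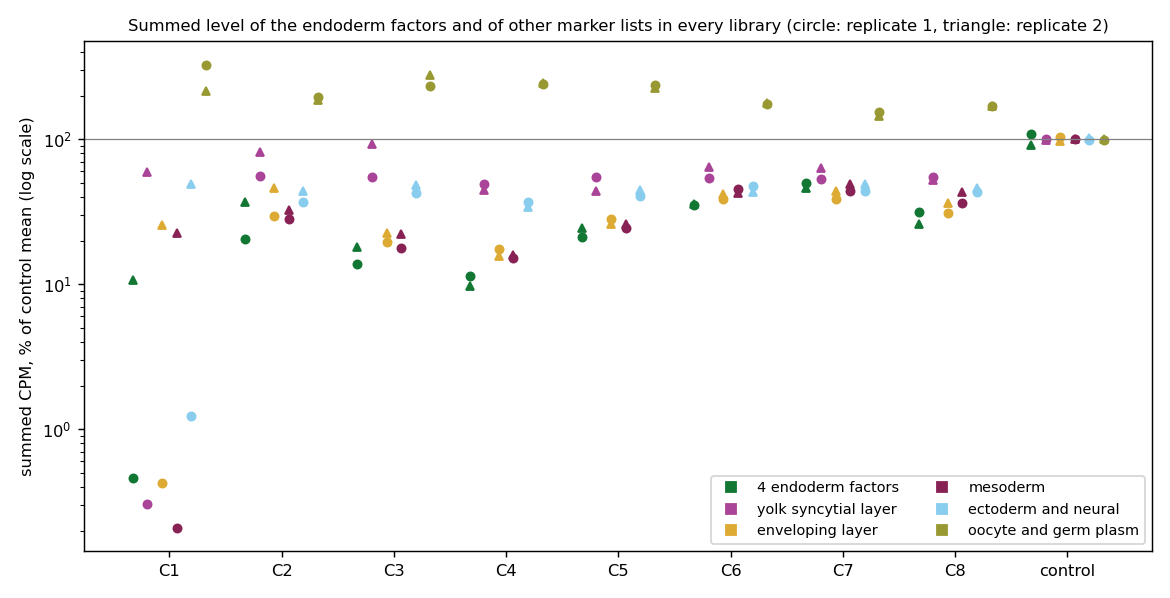
Summed CPM of the 4 endoderm factors (mixl1, sox32, gata5, gata6) and of 5 marker lists in each of the 18 libraries, as a percentage of the control mean on a log scale, by cocktail (C1 to C8) and control. The endoderm factors lie between 9.73% and 49.7% outside the first library of C1, where they are at 0.462%, and the oocyte and germ plasm list lies above 100% in every cocktail library.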

How the data were processed

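Total RNA of whole embryos was made into libraries with the Nextera XT kit, per the labels' protocols. Strand is not kept by it, so a gene and its antisense partner cannot be separated. For each library the authors deposited a table of raw counts and a table taken here as TPM, since its columns share 1 total. The submitters' processing notes name danRer11 and bcl2fastq 2.20. Aligner, counter and annotation release are not stated in the sources used here. The 4 rows of each count table that name no gene (22.6% to 55.5% of reads) were dropped.

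After TMM normalisation, counts were fitted in edgeR 4.0.16 (R 4.3.3) by robust quasi-likelihood, each of the 9 groups having its own coefficient, and contrasts were tested by F tests with Benjamini-Hochberg adjustment over every gene tested. A minimum count of 10 in edgeR's filter left 14514 genes. Standard errors come from the fold change and its F value. Ratios of factors had 0.5 added to each count. Alternatives were DESeq2 1.42.0, RLE scaling, the unfiltered table, a replicate block, limma 3.58.1 on log2(TPM + 1), which understates changes of low genes, and leaving out each library. The procedure was run on simulated counts with planted changes. No outlying library such as Cocktail 1 replicate 1 was planted, so that run cannot show how the tests behave with one. Within every group the replicates differed beyond sampling noise (the smallest chi-square over its degrees of freedom was 3.58).

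The factors and gene lists were chosen with earlier results of these data known. The text names all 5 factors, the 3 genes closest to each in pattern, and from each list called genes with the largest changes (at most 6 a direction) and the most abundant gene that was not called. Other list genes were named after their values were seen. The list gene mezzo had no match, and wnt8a was left out because 2 identifiers bear that name. Coordinates are not printed, as the only reference table used is of another assembly.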

Additional observations from a re-analysis of the deposited data

Results flagged for a closer look

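In 5 of 32 comparisons a factor differed between 1 cocktail and the mean of the other 7 by the test of that difference. Of these, 2 were lower and 3 higher, where 0.13% of all gene by cocktail comparisons were called lower and 0.172% higher. Against the mean of the other 7, gata5 was lower in Cocktail 1 (log2 fold change -2.20) and higher in Cocktail 6 (1.71). In the same test gata6 was lower in Cocktail 1 (-2.33) and higher in Cocktails 6 (1.44) and 7 (1.65). Over the 18 fits with 1 library left out, gata5 in Cocktail 1 passed in 4 and lost its call in 14. The other 4 results lost theirs in 1 fit (gata6 in Cocktail 1) or in 2. The mean of the other 7 includes Cocktail 1 replicate 1 for Cocktails 6 and 7.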

How the results depend on the processing

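The count of factors lower in the mean of the 8 cocktails was 3 or 4 under every alternative that kept all libraries, where 4.64% to 16% of all genes were called lower. That of factor by cocktail comparisons lower than the control was 21 to 27 of 32 under such alternatives. With the 2-fold minimum kept, 3.43% to 7.17% of all gene by cocktail comparisons were called lower there. The count was lower when a control library was left out, as given with the single cocktails. Against the other 7 cocktails, no filter on low counts gave 7 lower and 7 higher, where 0.364% of all gene by cocktail comparisons were called lower and 0.428% higher. The replicate block gave 1 lower there. With 1 library left out these ranged from 1 to 5 lower and from 1 to 14 higher. The 14 came without Cocktail 1 replicate 2, where 1.65% of all comparisons were called higher, and the 5 without either library of Cocktail 1 in turn, where 0.292% (replicate 1 left out) and 0.824% (replicate 2) were called lower. Of the 6 ratios between factors, 2 passed on the deposited TPM values, and 0 to 2 with 1 library left out. The ratio of sox32 to gata5 ranged from -0.17 to 0.0495 with 1 library left out and turned positive without Cocktail 1 replicate 1 (0.0067) and without control replicate 1 (0.0495). The cause was not tested. In the pathway list, no filter gave 10 lower, where 9.73% of all genes were called lower. With 1 library left out its counts ranged from 3 to 11 lower and from 2 to 6 higher, and those of the other cell type lists from 13 to 28 lower and from 5 to 9 higher. The counts of 11 and 28 came without Cocktail 1 replicate 2, the 6 without Cocktail 1 replicate 1, and the 3 and 5 without control replicate 1. The share of all genes called in these fits ranged from 5.65% to 17.1% lower and from 6.49% to 16% higher. No pairing by replicate number was detected: over the 36 pairs of groups the correlation of replicate differences had a median of 0.00 (-0.12 to 0.13). Such correlations cannot tell whether replicates shared a clutch or an injection. The replicate block changed no other count by over 1.5 times. Fits with 1 library left out also tested more genes, and fits without 1 control leave the control with a single library.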

Other observations

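In Cocktail 5 the related genes gata5 and gata6 went opposite ways between the libraries, an observation chosen after the values were seen and with no test. Replicate 1 had 25.8 CPM of gata5 and 17.9 CPM of gata6, and replicate 2 had 13.9 CPM of gata5 and 26.3 CPM of gata6. Their log2 ratio was 0.52 in replicate 1 and -0.91 in replicate 2, the lowest of all cocktail libraries and the nearest to the controls, at -1.05 and -1.01. Behind these values stood 82 reads of gata5 and 57 of gata6 in replicate 1, and 55 of gata5 and 104 of gata6 in replicate 2. In the same libraries sox32 was at 16.4 and 20.2 CPM and mixl1 at 63.6 and 82.7 CPM.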
